A study of Mus musculus with 56 samples.

Results

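The respiratory chain of the inner mitochondrial membrane is built from proteins encoded in the nucleus and a few encoded by mitochondrial DNA. The nuclear members were taken from the annotation as protein-coding genes outside mitochondrial DNA whose symbols begin with Ndufa, Ndufb, Ndufc, Ndufs, Ndufv, Uqcr, Cox4i, Cox5, Cox6, Cox7, Cox8 or Atp5, together with Sdha, Sdhb, Sdhc, Sdhd and Cyc1. The rule used no measured value. It gave 99 gene records with 98 symbols (Atp5po has a second record, which holds only the readthrough transcript Atp5po-235) among the 52230 genes of the series, and 88 of the 99 had enough reads to be tested in every comparison.

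The data are liver RNA-seq of 56 male mice on a C57BL/6N background that carried either P (proline) or L (leucine) as residue 446 of GKRP, the regulatory protein that binds and inhibits glucokinase in hepatocytes. The knock-in line was GCKR-P446L-EMI-B6N, and the genotypes were PP (Gckr-446P), PL (Gckr-446P/L) and LL (Gckr-446L). All mice, the PP controls included, had 20 weeks of the HFHSD, a diet rich in fat (45% of energy) with sugar in the drinking water (10% glucose and 5% fructose). In 3 of the 6 groups the diet also contained GKA, an activator of glucokinase, at 3 mg/kg. The groups held 10 PP, 8 PL and 10 LL mice without GKA and 10 PP, 8 PL and 10 LL mice with GKA. PP mouse 7 was left out, so that PP without GKA had n = 9. There was no group on another diet, and the labels give no age, litter or harvest time. Separate mice were the replicates.

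Total reads per mouse were between 5189852 and 8093368. The liver label was checked with hepatocyte markers (Alb, Apoa1, Ttr, Cps1, Cyp2e1 and Tat), which together held between 57751 and 135220 CPM in each mouse, whereas skeletal muscle markers held at most 0.75 and Ckm had no read in any mouse. The 6 adipose markers (Adipoq, Plin1, Ucp1, Cidea, Car3 and Cfd) together reached 4600.1 CPM, with Adipoq at 0 in all mice. Liver can express Car3 and Cfd, but the sum was not split by gene. Blood markers held between 258 and 3089 CPM (median 497), the highest in an LL mouse with GKA. Pancreas markers held between 7.89 and 48.3 CPM. The 88 members held 0.896 ± 0.094% of the reads (SD, n = 55 mice), between 0.688% and 1.17%. The 13 subunits encoded by mitochondrial DNA held 9.71 ± 1.24%, between 6.68% and 12.1%.

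As background, electrons from NADH enter at complex I and those from succinate at complex II, pass through ubiquinone to complex III and through cytochrome c to complex IV, which reduces oxygen. Complexes I, III and IV pump protons, and ATP synthase uses the gradient to make ATP. Hepatocytes depend on this chain for gluconeogenesis, urea synthesis and fatty acid oxidation. Glucokinase and GKRP act upstream of it, at the entry of glucose into hepatic metabolism. The transcription factors NRF1, GABP (an ETS factor), YY1 and the oestrogen-related receptors (ERR), with the coactivator PGC-1alpha, are known regulators of many nuclear genes of the chain.

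The promoters of these genes were examined because the members varied together from mouse to mouse, as described below. That variation went with transcript length across libraries, and whether the motifs bear on it was not tested. The window ran from 250 bases before to 50 bases after the start of the most-read coding transcript (GRCm39), for the 88 members and, as background, for all 10692 nuclear protein-coding genes tested. On either strand, the NRF1 motif GCATGCGC stood in 10 members (11.4%) and in 4.87% of all windows. The ERR motif AAGGTCA stood in 8 members (9.09%) and in 3.86% of all. The YY1 motif AAGATGGC stood in 5 members (5.68%, against 3.77% of all), the ETS motif CCGGAAGT in 4 (4.55%, against 7.09%) and the Sp1 motif GGGCGGG in 25 (28.4%, against 41.6%). At least 1 of these motifs stood in 44.3% of the members and in 52.2% of all windows, so exact matches marked a minority of the members. The median GC content of the windows was 55.8% in the members and 58.0% in all genes.

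For 3 members, 200 bases of the window are shown up to the base before the start, with the motif named for each in capitals. They are Ndufb2 and Uqcr11, to which the comparisons return, and Cox6a1, where overlapping matches of the NRF1 motif stand on both strands. In the full window Uqcr11 also had the NRF1 motif and Cox6a1 the Sp1 motif, which are not in capitals. The stretch of Ndufb2 is chr6:39569290-39569489 on the plus strand, that of Uqcr11 is chr10:80242677-80242876 and that of Cox6a1 chr5:115487041-115487240, both on the minus strand (GRCm39). The ERR motif of Ndufb2 began 172 bases before the start, the ETS motif of Uqcr11 45 bases and the NRF1 motif of Cox6a1 139 bases.
Ndufb2: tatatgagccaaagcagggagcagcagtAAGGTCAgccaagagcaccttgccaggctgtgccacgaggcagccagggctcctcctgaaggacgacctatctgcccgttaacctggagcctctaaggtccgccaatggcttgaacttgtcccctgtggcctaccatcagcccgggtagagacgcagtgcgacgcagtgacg
Uqcr11: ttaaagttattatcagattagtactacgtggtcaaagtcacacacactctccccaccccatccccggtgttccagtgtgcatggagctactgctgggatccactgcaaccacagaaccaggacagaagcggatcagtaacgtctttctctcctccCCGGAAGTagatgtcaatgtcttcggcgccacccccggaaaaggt
Cox6a1: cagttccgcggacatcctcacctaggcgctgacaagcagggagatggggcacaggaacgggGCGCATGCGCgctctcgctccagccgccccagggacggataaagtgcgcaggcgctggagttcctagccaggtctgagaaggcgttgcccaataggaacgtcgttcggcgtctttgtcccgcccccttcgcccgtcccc

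Complex I, NADH:ubiquinone oxidoreductase, had 7 core members, among them Ndufs1, Ndufs3, Ndufs7, Ndufs8, Ndufv1 and Ndufv2. The subunits with the flavin and iron-sulphur centres belong to this group, but not every core member carries a centre. On the TPM scale, which corrects for transcript length, the median of the group over 55 mice was 76.6 and the lowest level was that of Ndufs1 (38.3). The 31 accessory members, which stabilise the complex without redox centres, were Ndufa1, Ndufa2, Ndufa3, Ndufa5, Ndufa6, Ndufa7, Ndufa8, Ndufa9, Ndufa10, Ndufa11, Ndufa12, Ndufa13, Ndufab1, Ndufb1, Ndufb2, Ndufb3, Ndufb4, Ndufb5, Ndufb6, Ndufb7, Ndufb8, Ndufb9, Ndufb10, Ndufb11, Ndufb11b, Ndufc1, Ndufc2, Ndufs4, Ndufs5, Ndufs6 and Ndufv3. Their highest median level was that of Ndufa6 (253 TPM) and their lowest among those detected that of Ndufb4 (17.6 TPM), while Ndufb11b had no read in any mouse.

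The symbols also took in 8 factors that help to build complex I and are not part of it, Ndufaf1, Ndufaf2, Ndufaf3, Ndufaf4, Ndufaf5, Ndufaf6, Ndufaf7 and Ndufaf8. They stood lowest of all groups, from 1.82 TPM for Ndufaf5 to 17.8 TPM for Ndufaf8. Ndufaf5 had 8 to 30 reads per mouse and Ndufaf8 15 to 69.

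Complex II, succinate dehydrogenase, is the member of the citrate cycle within the chain and is encoded by nuclear genes alone. The flavoprotein Sdha had a median of 189 TPM, the anchor Sdhc 127 TPM, the iron-sulphur subunit Sdhb 103 TPM and the anchor Sdhd 97.5 TPM. In complex III, the 9 members were the core proteins Uqcrc1 and Uqcrc2, cytochrome c1 (Cyc1), the Rieske protein (Uqcrfs1) and the small subunits Uqcrb, Uqcrh, Uqcrq, Uqcr10 and Uqcr11. The highest was Uqcrq (551 TPM) and the lowest Uqcrfs1 (63.4 TPM).

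Complex IV, cytochrome c oxidase, had 21 members, of which Ndufa4 was first described with complex I. The ordinary liver forms had the highest levels of any group, with a median of 333 TPM over the 12 tested members. Cox6b1 (651 TPM) and Ndufa4 (628 TPM) led, followed by Cox4i1 (469), Cox6c (406), Cox6a1 (371), Cox7b (336), Cox5b (330), Cox8a (265), Cox7a2 (234), Cox7c (188) and Cox5a (156), and Cox7a2l, a factor of supercomplex assembly, was lowest (64.1 TPM). The spread of TPM among mice was wide for every member (for Cox6b1, 246 to 2459 TPM), so the order of neighbours such as Cox6b1 and Ndufa4 lies within it.

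The alternative forms of complex IV were near absent. Over all 56 mice, Cox4i2, a form of lung and low oxygen, had 9 reads against 83547 for Cox4i1. The heart and muscle form Cox6a2 had 13 reads against 59322 for Cox6a1, and Cox8b had 9 against 41558 for Cox8a. The testis forms Cox6b2, Cox7b2 and Cox8c had 12, 0 and 0 reads. The muscle form Cox7a1 had 168 reads, against 38655 for Cox7a2, and a median CPM of 0.405. Ndufa4l2, a gene induced by low oxygen, had 168 reads against 82294 for Ndufa4. Cox5b-ps, which is annotated as protein coding, had 7 reads. These 9 genes, with Ndufb11b and Atp5po-235 (30 reads), are the 11 members that were not tested.

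ATP synthase had 18 symbols: the catalytic head and stalk (Atp5f1a, Atp5f1b, Atp5f1c, Atp5f1d and Atp5f1e), the peripheral stalk and membrane part (Atp5pb, Atp5pd, Atp5pf, Atp5po, Atp5me, Atp5mf, Atp5mg, Atp5mj and Atp5mk), the c-ring genes Atp5mc1, Atp5mc2 and Atp5mc3, and the inhibitor Atp5if1. The catalytic beta subunit Atp5f1b was highest (563 TPM). It was also the member with most reads (303463), followed by the alpha subunit Atp5f1a (283750 reads, 252 TPM). The inhibitor Atp5if1 stood at 20.3 TPM. Of the c-ring genes, Atp5mc3 (369 TPM) and Atp5mc1 (196 TPM) exceeded Atp5mc2 (14.2 TPM), the lowest value of the complex, whose reads are treated separately below.

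**Figure D1:**
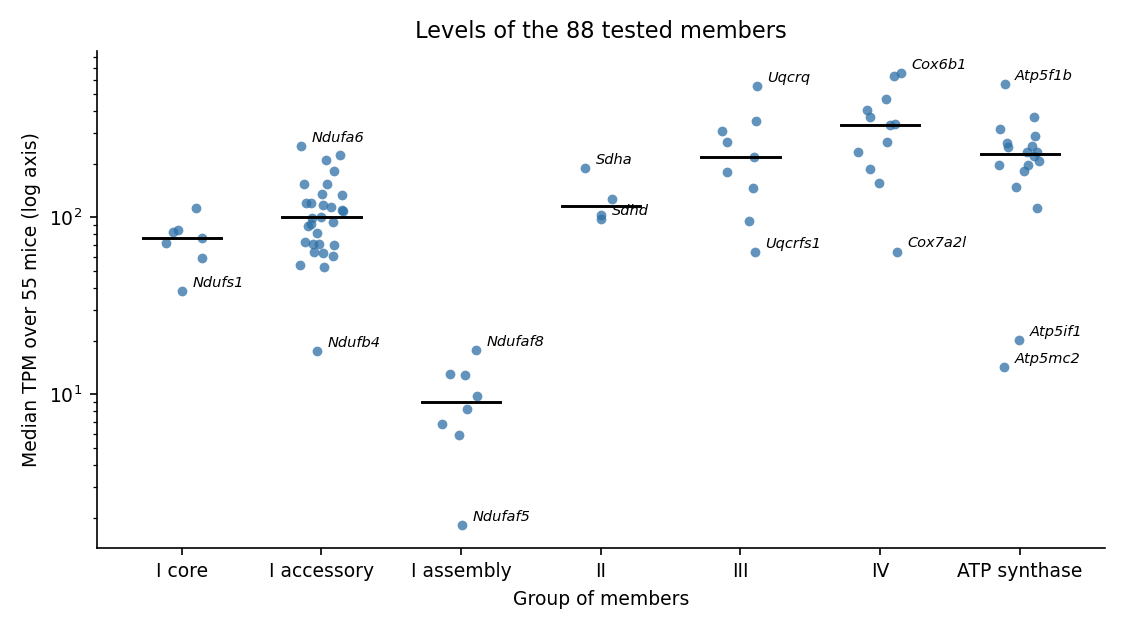
Median TPM over 55 mice (log axis) of each of the 88 tested members, by group; each point is a gene and each bar the median of its group. The assembly factors lie between 1.82 and 17.8 TPM, while complex IV reaches 651 TPM and has the highest median.

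The mean log2 CPM of the 88 members (CPM with TMM scaling, prior count of 2) gave a value per mouse. It was 5.94 ± 0.17 for PP mice (SD, n = 9), 6.01 ± 0.16 for PL mice (n = 8) and 6.03 ± 0.28 for LL mice (n = 10). With GKA, PP mice had 5.97 ± 0.23 (n = 10), PL mice 6.03 ± 0.24 (n = 8) and LL mice 5.92 ± 0.18 (n = 10). The group means thus lay closer together than mice of any group, and all groups overlapped. The medians were 5.98 in PP, 6.01 in PL and 5.90 in LL, and 5.85, 5.90 and 5.91 with GKA. Their order differed from that of the means. The LL mice without GKA fell apart most, with 4 mice between 6.28 and 6.43 and the other 6 between 5.71 and 5.91. PP mouse 7 had the lowest value of all (5.61).

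**Figure D2:**
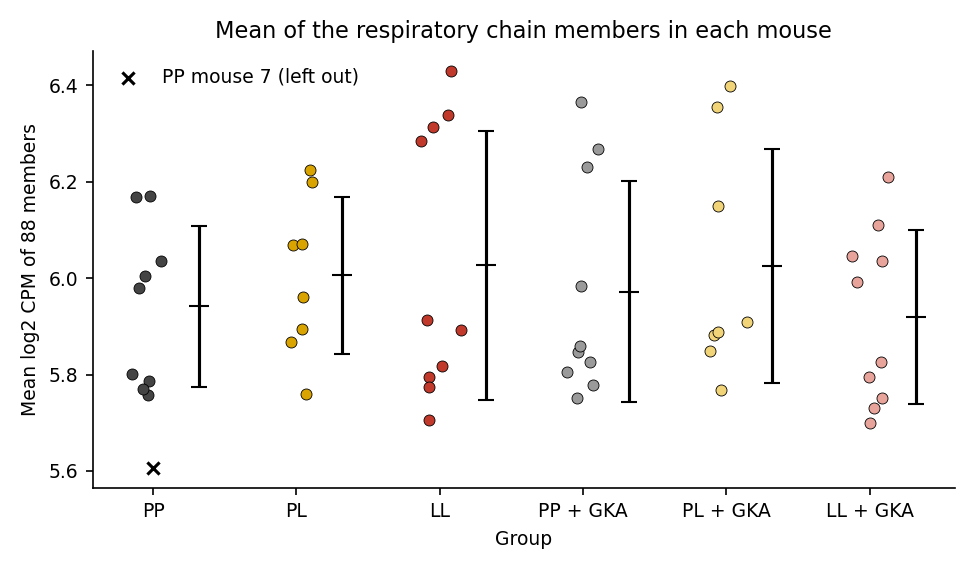
Mean log2 CPM of the 88 members in each mouse (points), by genotype and GKA, with the mean and SD of each group (bars). The 6 groups overlap, with means between 5.92 and 6.03, and PP mouse 7 (cross, not in the mean) lies lowest at 5.61.

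The members moved together among mice. After each group was centred on its mean, the median Pearson correlation over the 3828 pairs of members was 0.72 across 55 mice, against -0.0007 over all pairs of the 11477 genes tested, and 74.8% of the member pairs had r above 0.5, against 2.22% of all pairs. The complexes differed in how tightly they moved: the median r was 0.80 among the accessory members of complex I, 0.79 in complexes III and IV, 0.63 among the core members, 0.61 in ATP synthase, 0.52 in complex II and 0.35 among the assembly factors. Of the 88 members, 63 had r above 0.8 with the mean of the others, led by Ndufb9 (0.95), Ndufa13 (0.95), Cox4i1 (0.94) and Ndufa5 (0.94). Ndufs1 (-0.09), Atp5mc2 (-0.01) and Sdha (0.03) did not follow it. Atp5if1 (0.36), Ndufaf5 (0.39), Ndufaf7 (0.42), Ndufab1 (0.45), Ndufb4 (0.46), Atp5f1a (0.51) and Atp5f1b (0.52) followed it weakly.

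These values are shared by libraries and not only by the chain. The mean of 2917 other genes with an effective transcript length over 3000 bases moved opposite to the mean of the members, with r = -0.97 across 55 mice and between -0.98 and -0.95 within each of the 6 groups. The 78 mitochondrial ribosomal protein genes moved with the members (r = 0.98), as did the 88 cytosolic ribosomal protein genes (r = 0.86) and 1911 other genes with an effective length under 600 bases (r = 0.82). The correlation with total reads was -0.11, with the clock component (first principal component of 16 clock genes) 0.43 and with the share of reads encoded by mitochondrial DNA -0.35. The members are short: their median effective length was 267 bases, against 1669 for all genes tested, and 70 of the 88 were under 600. Of the members that did not follow the mean or followed it weakly, Ndufs1 (1208 bases), Sdha (1269) and Atp5f1a (1760) were the 3 longest of the 88, while Atp5mc2 had 332 bases. Across the 88 members the slope on the mean of the others had r = -0.70 with log2 effective length. With the mean of the long transcripts taken out, the median correlation between members was 0.12 and 3.00% of pairs exceeded 0.5. Lower RNA per cell and fewer cells of a type cannot be told apart in bulk liver. These are descriptions across mice and genes that share libraries, and the part of RNA quality or library preparation in them was not tested.

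**Figure D3:**
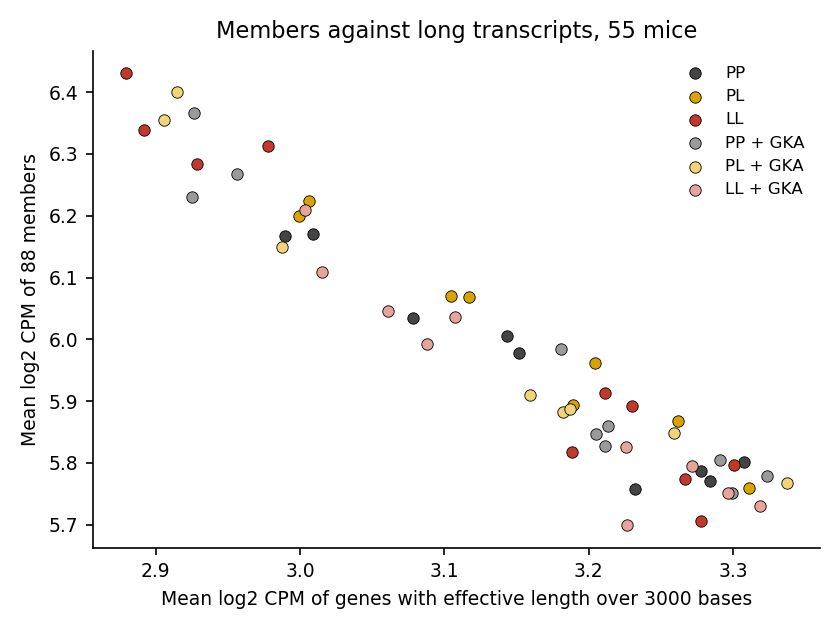
Mean log2 CPM of the 88 members against the mean log2 CPM of 2917 genes with effective length over 3000 bases, for 55 mice coloured by group. The points fall along a line (r = -0.97), and mice of every group are spread along it.

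The variation of single members in the fit of 6 groups was close to that of other genes, with a median biological coefficient of variation of 0.183 in the members and 0.174 in all genes. Among the steadiest were Atp5f1b (0.088), Atp5f1a (0.092) and Ndufs1 (0.095). Atp5f1b, for example, had a lowest, median and highest CPM of 687, 785 and 894 in PP, 769, 845 and 892 in PL, and 761, 834 and 891 in LL. With GKA these were 766, 821 and 897 in PP, 760, 817 and 929 in PL, and 727, 805 and 856 in LL, so the ranges of all groups overlapped. Sdha had 374, 405 and 476 CPM in PP and 388, 435 and 521 CPM in LL, and these ranges overlapped too. The most variable were Atp5mc2 (1.07), Atp5mg (0.395) and Atp5mc1 (0.281).

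These 3 genes of ATP synthase share long stretches with transcribed copies elsewhere. Atp5mc2 lies on chromosome 15 (102571295 to 102580787, GRCm39), and its transcript is identical over 649 bases to Gm70834 on chromosome 7 (23646064 to 23646716, GRCm39), a locus that also carries the pseudogene record Gm10175. In contrast, the 3 c-ring genes, which encode the same mature protein, can be told apart by their codons. A stretch of 90 coding bases is shown, with capitals where a base differs from Atp5mc2; Atp5mc1 differs at 15 positions and Atp5mc3 at 16, and the chromosome 7 copy holds the Atp5mc2 stretch without a difference.
Atp5mc2: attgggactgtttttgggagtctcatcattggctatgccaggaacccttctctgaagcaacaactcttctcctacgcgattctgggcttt
Atp5mc1: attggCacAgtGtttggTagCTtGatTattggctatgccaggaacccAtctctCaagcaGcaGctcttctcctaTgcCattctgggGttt
Atp5mc3: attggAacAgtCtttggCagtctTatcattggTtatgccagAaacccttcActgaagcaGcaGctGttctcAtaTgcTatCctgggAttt

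The reads of Atp5mc2 and its copy were split in an almost all-or-none manner. Atp5mc2 held between 1.07% and 100% of their joint reads, with a median of 11.6%. It held over 75% in 13 of 55 mice and under 25% in 35, and mice of both kinds were present in every group. In CPM without TMM scaling, Atp5mc2 was 23.0 ± 25.7 (SD, n = 55), a coefficient of variation of 111%, while the sum with the copy was 74.5 ± 9.95, a coefficient of 13.4%. By group the sum was 71.3 ± 7.40 in PP, 75.1 ± 7.13 in PL and 76.9 ± 10.2 in LL, and 77.1 ± 12.8, 74.9 ± 14.0 and 71.6 ± 7.21 in PP, PL and LL with GKA. Atp5mg shares 309 identical bases with Gm10221 and parts of 8 other copies, and the coefficient fell from 40.9% to 12.5% when they were summed. For Atp5mc1 with Gm10039 (1 mismatch in 411 bases) it fell from 24.0% to 15.8%. Copies were found for 11 members, and in the other 8 they changed the coefficient little (for Ndufs5 from 17.4% to 15.5%). Ndufb11, Ndufa13, Ndufb1 and Atp5pd match Rbm10, Tssk6, Cpsf2 and Rpl37 on the opposite strand. The sources used here do not give the strand of the reads, so the values of these 4 members are uncertain.

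**Figure D4:**
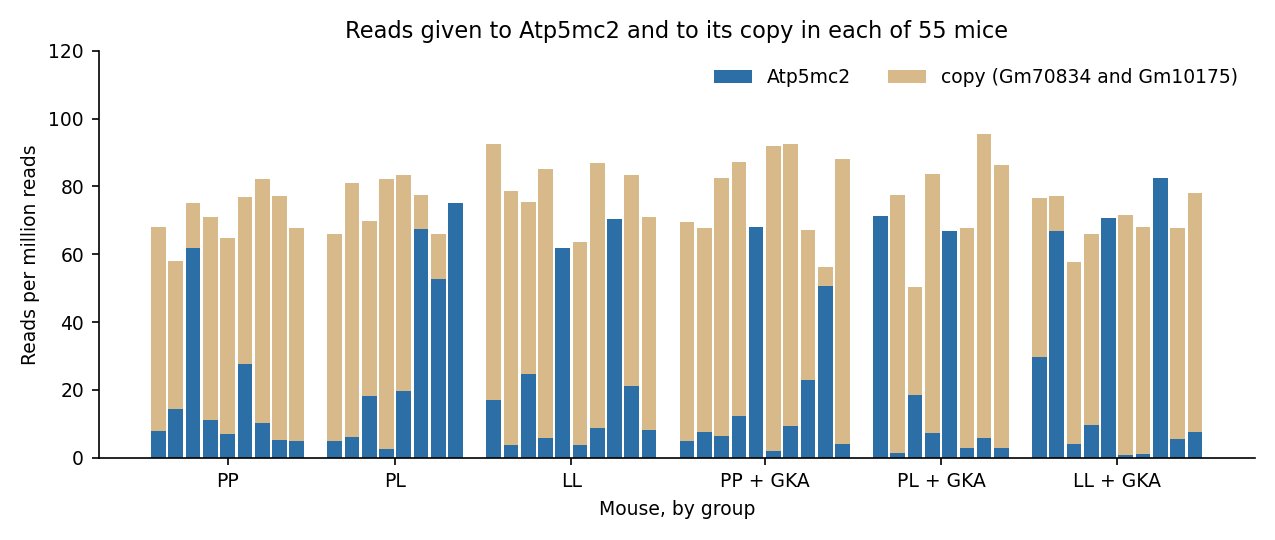
CPM without TMM scaling given to Atp5mc2 (blue) and to its chromosome 7 copy (Gm70834 and Gm10175, tan) in each of 55 mice, by group. The sums stay between 50.2 and 95.5, while Atp5mc2 alone runs from 0.764 to 82.4.

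To assess whether homozygosity for 446L altered the nuclear members, LL was compared with PP without GKA. None of the 88 members was a DEG (adjusted p below 0.05 and a fold of 1.3 or more, or of 0.7 or less) by the edgeR quasi-likelihood test or by DESeq2, where 0.0854% of 10537 genes were DEGs by edgeR and 1.05% by DESeq2. No member had an unadjusted p below 0.05 by edgeR, where 11.8% of all genes did. By DESeq2 1 member had, where 1219 of 10537 genes did. The members leaned higher in LL: 80 of 88 had a positive log2 fold change and the median was 0.10, against 52.7% of all genes and a median of 0.01. The lean was seen in each group, with medians of 0.14 for the core (7 of 7 positive), 0.09 for the accessory members (26 of 30), 0.03 for the assembly factors (6 of 8), 0.08 for complex II (4 of 4), 0.11 for complex III (9 of 9), 0.11 for complex IV (11 of 12) and 0.13 for ATP synthase (17 of 18). The median SE of a single member was 0.12. This lean is one of means. The median of the mice, on the mean of the members, was 5.98 in PP and 5.90 in LL. By group, only complex II had a higher median in LL (7.38 against 7.29 in PP). The median fell to 0.05 with 66 positive without LL mouse 45, and was 0.06 without PP mouse 5 or 8. Members that move together do not count separately. With the clock component as a covariate the median was -0.24 and 5 of 88 were positive. In that fit 38 members had an unadjusted p below 0.05, where 1620 of 10537 genes did. The median was -0.06 with a transcript length offset. It was 0.01 with the mean of the long transcripts, a covariate chosen after these values were seen. The clock component was -0.601 ± 0.581 in PP and 0.486 ± 0.796 in LL, and the mean log2 CPM of the long transcripts 3.16 ± 0.12 and 3.12 ± 0.17. Their part in the lean was not tested.

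Among the positive members with the smallest p were Ndufs7 and Ndufa7 of complex I. Ndufs7, the core subunit next to the ubiquinone site, had a lowest, median and highest CPM of 21.0, 31.3 and 38.5 in PP and 29.0, 33.1 and 52.2 in LL. The groups overlapped, and the log2 fold change was 0.28 (SE 0.13, edgeR adjusted p 0.424), or -0.06 with the clock component. Ndufa7 had 53.7 ± 7.79 CPM in PP (n = 9) and 60.7 ± 10.1 CPM in LL (n = 10), with a log2 fold change of 0.18 (SE 0.10, edgeR adjusted p 0.521) that was -0.08 with the clock component and -0.34 with the length offset. The 3 negative members with the smallest p were the accessory subunits Ndufb6 (log2 fold change -0.11, SE 0.13) and Ndufb2 (-0.08, SE 0.12) and the ATP synthase subunit Atp5me (-0.08, SE 0.16), with edgeR adjusted p between 0.788 and 0.894. Without PP mouse 10, which had the highest PP value for Ndufb2, its log2 fold change was 0.01.

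With GKA, LL was again compared with PP. No member was a DEG by edgeR or DESeq2 (0.239% of 10460 genes by edgeR and 0.88% by DESeq2). By edgeR 2 members had an unadjusted p below 0.05, both lower in LL, where 10.4% of all genes did. By DESeq2 these were 2 members and 1058 of 10460 genes. The members now leaned lower in LL, with 20 of 88 positive and a median log2 fold change of -0.05, against 50.6% of all genes and a median of 0.00. The median of the mice, on the mean of the members, was instead higher in LL (5.91 against 5.85 in PP). By group, only the assembly factors (2.74 against 2.75) and complex II (7.27 against 7.31) had a lower median in LL. The accessory members of complex I had a median of -0.07 with 27 of 30 negative, complex II had 4 of 4 negative, and the assembly factors were even (4 of 8). With a transcript length offset the median was 0.04, with the long transcripts -0.03 (27 positive) and with the clock component -0.10 (7 positive). Single mice moved it too: it was -0.01 without PP mouse 17 (34 positive) or 20 (37 positive), -0.02 without PP mouse 16 and -0.03 without LL mouse 48, and -0.08 without PP mouse 14, 18 or 19 or LL mouse 51 or 52.

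Ndufaf8, which stabilises Ndufaf5, an assembly factor that modifies Ndufs7, had the smallest p. Its lowest, median and highest CPM were 4.98, 5.49 and 7.57 in PP with GKA and 2.59, 4.15 and 7.06 in LL with GKA. The median of LL with GKA thus lay below the lowest PP mouse with GKA, but the ranges overlapped, and the log2 fold change was -0.41 with an SE of 0.14 (edgeR p 0.00846 before and 0.268 after adjustment over all genes). Ndufb2 had 21.0, 27.3 and 48.0 CPM in PP and 18.4, 24.4 and 29.7 CPM in LL. Its log2 fold change was -0.30 with an SE of 0.14 (edgeR unadjusted p 0.0432, adjusted 0.469). Uqcr11, a small subunit of complex III, had a median of 102 CPM in PP, where mouse 20 reached 216, and 108 CPM in LL, so that the fold change of the means (-0.22, SE 0.14) and the medians differ in direction. The positive members with the smallest p were Atp5if1 (log2 fold change 0.12, SE 0.11), Atp5mc2 (0.56, SE 0.73) and Ndufs8 (0.08, SE 0.11), with edgeR adjusted p between 0.798 and 0.892. Summed with its copies, Atp5mc2 had a log2 fold change of -0.09.

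**Figure D5:**
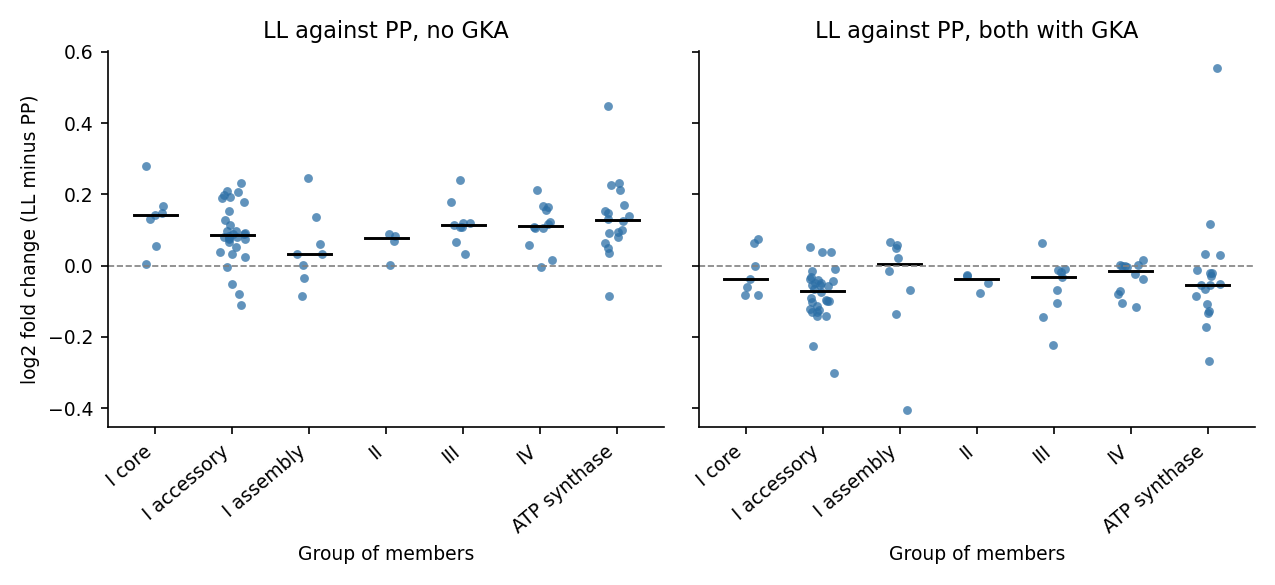
Log2 fold change (LL minus PP) of each tested member, by group of members, without GKA (left) and with GKA (right); bars are medians and the dashed line is no change. Most points lie above the line without GKA (80 of 88) and below it with GKA (68 of 88), and none passed the adjusted test. The folds are of means. The median of the mice, on the mean of the members, was lower in LL without GKA and higher with GKA.

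Over both GKA arms, LL against PP gave no DEG among the members by edgeR or DESeq2, where 1.70% of 11477 genes were DEGs by edgeR and 1.88% by DESeq2. Ndufb2 was the only member with an unadjusted p below 0.05 (16.0% of all genes), with 25.4 ± 4.73 CPM in LL (n = 20) and 29.1 ± 7.33 CPM in PP (n = 19). Its log2 fold change was -0.20 (SE 0.10, edgeR unadjusted p 0.0451, adjusted 0.298). With the long transcripts as a covariate, which removes much of the variation among libraries, Ndufb2 (-0.23 on the log2 scale, SE 0.05, edgeR adjusted p 0.00500) and Ndufb6 (-0.16, SE 0.05, edgeR adjusted p 0.0415) passed the adjusted threshold, short of the fold threshold. These were 2 of 88 members, where 5.92% of all genes passed in the same fit. Both are accessory subunits of the membrane arm of complex I. Ndufb6 had a lowest, median and highest CPM of 26.4, 32.8 and 36.3 in PP and 20.4, 26.0 and 43.0 in LL, and of 22.7, 30.9 and 42.4 in PP and 20.7, 27.7 and 40.5 in LL with GKA, so the groups overlapped in both arms. The positive members with the smallest p were Atp5if1 (0.17), Ndufv2 (0.09) and Cox7a2l (0.10, or -0.02 with the clock component), and Atp5me (-0.07) was the third negative one. Of all members, 61 were positive with a median of 0.02, which was -0.11 with the clock component, -0.02 with the length offset and -0.01 with the long transcripts, against 50.9% of all genes and a median of 0.00.

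The effect of LL was then compared between the arms by the interaction of LL with GKA. No member passed an adjusted p of 0.05, by edgeR or DESeq2 (0% of 11193 genes by edgeR and 0.00893% by DESeq2). The unadjusted p was below 0.05 for 6 by DESeq2 (615 of 11193 genes) and for 5 by edgeR (5.75% of all genes). All 5 were negative, among them Ndufaf8 (-0.65, SE 0.26), Uqcr11 (-0.40, SE 0.19, up to 0.02 under the alternatives), Ndufs7 (-0.36, SE 0.16) and Atp5f1d, the delta subunit of the ATP synthase stalk (-0.30, SE 0.14), each with an edgeR adjusted p of 0.867. The median over the members was -0.14 with 78 of 88 negative, against a median of 0.00 over all genes, and it was 0.11 with a transcript length offset, -0.05 with the long transcripts (30 positive) and -0.11 with the clock component. Medians of the mice, on the mean of the members, went the other way. They were 5.98 in PP and 5.90 in LL without GKA, and 5.85 and 5.91 with GKA. For PL, no member passed an adjusted or an unadjusted threshold by edgeR (0% and 3.35% of 11152 genes). By DESeq2 none passed the adjusted one (0.0269%), and 1 had an unadjusted p below 0.05 (343 of 11152 genes). The median was -0.01 (-0.15 with the length offset, -0.05 with the long transcripts and -0.04 with the clock component). The smallest p were those of Atp5if1 (0.30, SE 0.16, or -0.37 with the length offset) and Atp5f1a (-0.14, SE 0.08).

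In heterozygous mice, PL was compared with PP. No member was a DEG by edgeR or DESeq2 (0.151% of 10580 genes by edgeR and 0.671% by DESeq2). Of the members, 68 of 88 were positive, where 48.9% of all genes were, and the median was 0.05. Ndufs7 was the only member with an unadjusted p below 0.05 (10.1% of all genes), with 33.2, 37.7 and 41.4 CPM as lowest, median and highest in PL, against 21.0, 31.3 and 38.5 in PP (log2 fold change 0.22, SE 0.09, edgeR unadjusted p 0.0296, adjusted 0.434). Cyc1 followed (0.17, SE 0.09, or -0.05 with the clock component). By DESeq2 3 members were below 0.05 unadjusted, where 1022 of 10580 genes were. With GKA no member was a DEG by edgeR or DESeq2 (0% of 10520 genes by edgeR and 0.295% by DESeq2). Here 63 of 88 were positive, where 49.9% of all genes were, and the median was 0.04. Atp5if1, which blocks the reverse action of ATP synthase, had a lowest, median and highest CPM of 6.94, 9.06 and 12.4 in PL and 6.11, 7.20 and 8.99 in PP, both with GKA (log2 fold change 0.29, SE 0.11, edgeR unadjusted p 0.0151, adjusted 0.441). It was the only member below 0.05 unadjusted (8.19% of all genes), and Ndufaf1 followed (0.23, SE 0.12). Over both arms no member was a DEG by edgeR or DESeq2 (1.05% of 11477 genes by edgeR and 1.18% by DESeq2). There 77 of 88 were positive with a median of 0.05, where 50.0% of all genes were positive. Ndufaf1, a factor of complex I assembly, was the only member below 0.05 unadjusted (14.1% of all genes). It had 16.6 ± 3.18 CPM in PL (n = 16) and 14.4 ± 1.91 CPM in PP (n = 19; log2 fold change 0.20, SE 0.08, edgeR adjusted p 0.248). Ndufs7 followed (0.18, SE 0.09). With the clock component as a covariate, the median of the members was -0.13 without GKA, -0.04 with GKA and -0.12 over both arms. With the length offset it was 0.21 without GKA (71 positive), 0.05 with GKA and 0.19 over both arms (65 positive). Without GKA 10 of 88 members were then below 0.05 unadjusted, where 929 of 10580 genes were. Over both arms these were 13 of 88 members and 1517 of 11477 genes. With the long transcripts the median was 0.03, 0.00 (44 of 88 positive) and 0.01.

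LL was also compared with PL. Without GKA no member was a DEG (0.00942% of 10616 genes by edgeR and 0.207% by DESeq2) or below 0.05 unadjusted (4.58% of all genes) by edgeR or DESeq2. The median log2 fold change was 0.03 (-0.28 with the length offset and -0.04 with the long transcripts). On the mean of the members, the median of the mice was instead lower in LL (5.90 against 6.01 in PL). Ndufb2 (-0.19, SE 0.11) and Atp5if1 (0.21, SE 0.14, or -0.36 with the length offset) had the smallest p. With GKA no member was a DEG by either tool (0% of 10491 genes by edgeR and 0.343% by DESeq2). In this comparison 81 of 88 were negative with a median of -0.09, where 5309 of 10491 genes were negative. The median of the mice, on the mean of the members, was however 5.90 in PL and 5.91 in LL. Of the members, 4 had an unadjusted p below 0.05 (8.60% of all genes), all lower in LL. They were Ndufaf8 (log2 fold change -0.57, SE 0.18), Atp5mc1 (-0.35, SE 0.15), Uqcr11 (-0.27, SE 0.13) and Ndufa12 (-0.33, SE 0.16), with edgeR adjusted p between 0.400 and 0.579. Ndufaf8 had 4.55, 6.28 and 9.82 CPM in PL with GKA, and the range overlapped that of LL. The median was -0.03 with the length offset (42 of 88 positive) and -0.03 with the long transcripts (34 positive). With the length offset 10 members were below 0.05 unadjusted, of which 6 were higher, where 1000 of 10491 genes were below 0.05. The log2 fold change of Uqcr11 reached 0.11 under the alternatives.

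To assess the activator, each genotype with GKA was compared with the same genotype without it. None of the members was a DEG by edgeR or DESeq2 in PP (0% of 10548 genes by both tools), PL (0% of 10399 genes by edgeR and 0.00962% by DESeq2) or LL (0% of 10458 genes by edgeR and 0.0574% by DESeq2). In PP, 63 of 88 were positive (median 0.05), where 51.6% of all genes were. The median of the mice, on the mean of the members, was however 5.98 without and 5.85 with GKA. None had an unadjusted p below 0.05 (3.56% of all genes), and Ndufc2 (0.17, SE 0.09) and Atp5if1 (-0.18, SE 0.11) had the smallest p. In PL, 60 were positive (median 0.04), where 52.3% of all genes were. The median of the mice was again lower with GKA (6.01 without and 5.90 with it). None was below 0.05 unadjusted (3.18% of all genes), and Ndufa12 (0.33, SE 0.17) and Cox7c (-0.36, SE 0.19) had the smallest p. In LL, 80 of 88 were negative (median -0.09), where 5174 of 10458 genes were. The median of the mice, on the mean of the members, was however 5.90 without and 5.91 with GKA. Ndufaf8 alone was below 0.05 unadjusted (6.15% of all genes). It had 3.64, 6.32 and 11.0 CPM as lowest, median and highest in LL and 2.59, 4.15 and 7.06 in LL with GKA (log2 fold change -0.58, SE 0.21, edgeR unadjusted p 0.0108, adjusted 0.755). Atp5if1 followed (-0.27, SE 0.14). With the transcript length offset the medians were -0.14 in PP, -0.35 in PL and -0.04 in LL, with 21 members of PL below 0.05 unadjusted, all lower. With the long transcripts they were 0.02, -0.02 and -0.03, and with the clock component 0.07, 0.05 and -0.01. Over the 3 genotypes no member was a DEG or below 0.05 unadjusted by either tool (0% and 5.28% of 11477 genes by edgeR, and DEGs of 0.00871% by DESeq2). The median was -0.01, or 0.03 with the clock component and -0.13 with the length offset, where 70 of 88 were negative. With that offset 18 members were below 0.05 unadjusted, all lower, where 907 of 11477 genes were. Cox7c (-0.16, SE 0.09) and Atp5if1 (-0.13, SE 0.07) had the smallest p.

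Comparisons that share a group are not independent. Ndufaf8 had its lowest values in LL with GKA, and the 3 comparisons in which its p was smallest, and the interaction, all use that group. Ndufb2 had its lowest mean in the same group (24.6 ± 4.19 CPM, n = 10).

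The other genes of the pathway were taken from lists of factors that build the complexes, of carriers, of regulators and of neighbouring enzymes. Of the assembly factors outside the rule, none passed the adjusted test in any comparison (8 tested for complex I, 4 for complex II, up to 6 for complex III, 17 for complex IV and 3 for ATP synthase). In LL against PP without GKA, the smallest p of each were those of Ecsit (log2 fold change 0.14), Sdhaf3 (-0.20), Uqcc2 (0.25), Coa7 (0.28) and Atpaf1 (-0.17). With GKA they were those of Tmem186 (0.22), Sdhaf1 (0.38), Bcs1l (0.17), Coa7 (0.24) and Tmem70 (0.13). Coa7, a haem-binding factor of complex IV assembly, was the only name in both, with edgeR adjusted p of 0.356 and 0.423.

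Among 14 tested genes of electron carriers and ubiquinone synthesis, Coq8a, a kinase-like protein of the ubiquinone synthesis complex, fell in LL over both arms. It had 221 ± 53.5 CPM in LL (n = 20) and 309.9 ± 90.5 CPM in PP (n = 19), with a log2 fold change of -0.50 (SE 0.12, edgeR adjusted p 0.00782), and was no DEG, since its fold was above 0.7. Coq8a was the only gene of this list with an adjusted p below 0.05 in that fit, where 441 of 11477 genes had one. With GKA alone it had a log2 fold change of -0.62 (SE 0.18, edgeR adjusted p 0.167), and without GKA Coq9 had the smallest p (0.17, SE 0.06). Citrate synthase (Cs), among 13 citrate cycle genes, likewise fell in LL over both arms, from 148 ± 32.2 CPM to 118 ± 17.5 CPM (log2 fold change -0.32, SE 0.08, edgeR adjusted p 0.0137). Cs was the only gene of its list below 0.05 in that same fit. In LL without GKA it was 111 ± 10.6 CPM against 141 ± 22.3 CPM in PP (log2 fold change -0.34, SE 0.09, not below the threshold with an edgeR adjusted p of 0.112). With GKA Idh3a had the smallest p (0.21, SE 0.10). Of 12 regulators of mitochondrial biogenesis none passed. Esrra, which encodes ERRalpha, had the smallest p without GKA (0.41, SE 0.14, edgeR adjusted p 0.226) and Tfb2m with GKA (0.20, SE 0.08).

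With GKA, the fold changes of the 13 subunits encoded by mitochondrial DNA leaned the other way from those of the nuclear members. In LL against PP with GKA 12 of 13 were positive with a median of 0.23, while 68 of the 88 nuclear members were negative. The median of the mice, on the mean of the nuclear members, was however higher in LL (5.91 against 5.85 in PP). With the length offset the median fold of the nuclear members was 0.04. None of the 13 passed the adjusted test in LL against PP with GKA, and mt-Nd1, a core subunit of complex I, had the smallest p (0.35, SE 0.11, edgeR adjusted p 0.210). Over both arms mt-Nd1 rose in LL, from 5904 ± 571 CPM in PP (n = 19) to 6908 ± 1140.3 CPM (n = 20), with a log2 fold change of 0.22 (SE 0.06, edgeR adjusted p 0.0233). It was the only gene of the 13 with an adjusted p below 0.05 there, where 441 of 11477 genes had one. In LL against PP without GKA both sets leaned higher in LL, with 10 of the 13 positive (median 0.06) and 80 of the 88 nuclear members. There mt-Co2 had the smallest p of the 13 (1.17, SE 0.39, edgeR adjusted p 0.211), with 3140.2 ± 3247 CPM in LL, an SD as large as its mean. The difference between nuclear and mitochondrial subunits was not tested. Of 16 clock genes, 5 were DEGs for LL against PP over both arms (1.70% of all genes) and 9 for PL against PP over both arms (1.05%). For PL against PP without GKA 2 were DEGs (0.151% of all genes). Npas2 fell (log2 fold change -2.28 in LL and -2.39 in PL over both arms) and Dbp rose (1.16 and 1.37). The levels of Npas2 were low and widely spread, with 0.54 ± 0.50 CPM in LL, 0.52 ± 0.52 in PL and 2.81 ± 2.73 in PP. In LL against PP without GKA Tef had the smallest p (0.69, SE 0.16), and with GKA Cry1 (-1.11, SE 0.33).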

How the data were processed

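Liver RNA of 56 mice was sequenced. The authors ran FastQC, did no trimming and quantified the reads with Salmon 1.4.0 on GENCODE M26 transcripts (GRCm39). The deposited estimated counts were summed per gene and rounded to whole numbers; the deposited TPM gave levels and the deposited effective lengths, in bases, gave transcript lengths. Symbols came from GENCODE M39, which matched 98.8% of the transcripts. Total reads were between 5189852 and 8093368 per mouse, which limits the genes with few reads.

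Each pair of groups was fitted alone with edgeR 4.0.16 (filterByExpr, TMM, quasi-likelihood test) over all genes passing the filter, with Benjamini-Hochberg adjustment over all of them, and comparisons over both arms came from an additive model of genotype and GKA over 55 mice. Interactions were fitted over the 4 groups concerned. A DEG had an adjusted p below 0.05 and a fold of at least 1.3 or at most 0.7. PP mouse 7 was left out as in the study. R 4.3.3, DESeq2 1.42.0, Python 3.11.15 and BLAST 2.17.0+ were also used. The edgeR script was tested on simulated data.

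The members and gene lists were chosen with earlier results of these data known. The named members are the 3 higher and 3 lower with the lowest p in LL against PP (without GKA, with GKA and over both arms), the 2 with the smallest p elsewhere, any that passed an adjusted p of 0.05, the highest and lowest level of each complex, the isoform groups and Atp5if1, and the gene of each list with the lowest p in LL against PP. Further members with an unadjusted p below 0.05, and those with the highest or lowest variation or correlation, were named after their values were seen, as were the members whose promoters are shown. The alternatives were DESeq2, RLE size factors, no filter, PP mouse 7 kept, a length offset, no fold threshold, all 6 groups in 1 fit, a clock covariate, leaving out each mouse, and TPM for levels. The covariate of long transcripts and the summing of copies (at least 95% identity over 50% of the transcript) were chosen after seeing the data. The values of 1 member are not reported here.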

Additional observations from a re-analysis of the deposited data

Results flagged for a closer look

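Single mice stood apart from their group, by Dixon's criterion at the 95% level, in 4 of 96 sets checked (a member in a group), where chance alone flags about 1 in 20. Ndufaf8 reached 7.57 CPM in PP mouse 16 with GKA (group median 5.49). Ndufb2 reached 41.8 CPM in PP mouse 10 (group median 26.5), without which its log2 fold change in LL against PP was 0.01 in place of -0.08. Ndufs7 reached 60.5 CPM in PL mouse 32 with GKA (group median 33.5). Uqcr11 reached 216 CPM in PP mouse 20 with GKA (group median 102).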

How the results depend on the processing

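The count of member DEGs was 0 in each of the 14 comparisons under every alternative run. With the clock covariate the median log2 fold change of the members was -0.24 for LL against PP and -0.13 for PL against PP, and single members changed sign for LL against PP (Ndufs7 -0.06, Ndufa7 -0.08), PL against PP (Cyc1 -0.05) and LL against PP over both arms (Cox7a2l -0.02). With the length offset the medians were -0.28 for LL against PL, -0.35 for PL with against without GKA and 0.11 for the interaction of LL with GKA, and Ndufa7 (-0.34, LL against PP) and Atp5if1 (-0.36, LL against PL, and -0.37, interaction of PL with GKA) changed sign. With copies summed, Atp5mc2 was -0.09 for LL against PP with GKA. With the long-transcript covariate Ndufb2 (-0.23) and Ndufb6 (-0.16) passed an adjusted p of 0.05 for LL against PP over both arms, where 5.92% of all genes did. On TPM in place of CPM, the mean level relative to PP changed for the assembly factors in PL with GKA (-0.18), the complex I core in PL (0.22) and complex II in PL (-0.13), PP with GKA (0.37) and LL with GKA (0.20). The causes were not tested. Leaving out each mouse, the median ran from 0.05 to 0.13 for LL against PP (19 fits) and from -0.08 to -0.01 with GKA (20 fits), and Ndufb2 was 0.01 for LL against PP without PP mouse 10. No paired analysis was possible because the groups share no replicate numbers. Depth limits the assembly factors, of which Ndufaf5 had 8 to 30 reads per mouse.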
